A study of Mus musculus with 22 samples.

Results

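Genes of major histocompatibility complex (MHC) presentation were followed across the 6 cell types of the mouse colon crypt. The 10 genes were chosen by name, out of 24421 in the count files: H2-K1, H2-D1, B2m and Tap1 of class I, H2-Aa, H2-Ab1, H2-Eb1 and Cd74 of class II, and the transactivators Nlrc5 and Ciita. RNA was sequenced from cells of wild-type male C57BL/6N mice aged 5 to 7 weeks, sorted live as Epcam+, Cd31- and Cd45- after dissociation with EDTA. The groups were stem cells (Stem, 3 libraries, Cd44 highest, Cd24 low, Ckit-), absorptive progenitors (AbsPro, 3, Cd44 medium to high, Cd24 low, Ckit-), the gate of secretory progenitors, deep crypt secretory cells and goblet cells (SecPDG, 4, Cd44 high, Cd24 medium, Ckit medium), tuft cells (Tuft, 5, Ckit+, Cd24 high), enterocytes (Enterocyte, 5, Cd44 low or negative, Cd24-) and enteroendocrine cells (EEC, 2, Cd44 low or negative, Cd24+). The labels give the SecPDG gate as Cd44 high, whereas the study's text names it Cd44 medium. No group was treated. A Stem or AbsPro library came from 1 mouse, whereas libraries of the other types pooled mice, and libraries go by the name of their type with a number.

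Class I molecules stand on nearly all nucleated cells and show peptides from the cytosol to CD8 T cells. Their heavy chains, among them H2-K1 and H2-D1, pair with B2m, the Tap transporter carries peptides to them in the endoplasmic reticulum, and Nlrc5 drives their transcription. Class II molecules show peptides from endosomes to CD4 T cells, are made from an alpha chain such as H2-Aa and a beta chain such as H2-Ab1 or H2-Eb1, are escorted by the invariant chain Cd74, and depend on Ciita. Professional antigen-presenting cells carry class II at all times, and epithelial cells of the gut can carry it too, above all after interferon gamma.

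Depth and the share of reads on genes were not even over the groups. Counts on genes ran from 4122122 to 22462518 per library, and reads outside annotated genes made up 41.3 to 49.9% of the reads in Stem, AbsPro and SecPDG, against 43.9 to 68.4% in Tuft, 67.2 to 83.3% in Enterocyte and 64.9 to 89.9% in EEC. The EEC libraries stood apart from each other, with a Spearman correlation of 0.729 over genes, the lowest of any pair within a type, and EEC 1 was the shallowest library. Of the type markers, 4 of 4 were highest in their own type in Stem, Tuft and EEC, and 3 of 4 in Enterocyte, where Car1 was higher in AbsPro, and in SecPDG, where the goblet mucin Muc2 averaged 636062 normalized counts against 675085 in Tuft. The other SecPDG markers were also high in Tuft, with Spdef at 3951 against 6398 in SecPDG, Atoh1 at 3691 against 7054 and Agr2 at 50555 against 69710.1, and their part in values that Tuft and SecPDG share was not tested. Normalized counts are counts scaled to a common library size by TMM. In bulk samples such as these, fewer cells of a type and less RNA per cell cannot be told apart.

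Of the 10 genes, 6 lie on chromosome 17 (mm10): H2-K1 at chr17:33996017-34000347 on the minus strand, Tap1 at chr17:34187553-34197225, H2-Ab1 at chr17:34257689-34269419, H2-Aa at chr17:34282744-34287823 on the minus strand, H2-Eb1 at chr17:34305867-34316674 and H2-D1 at chr17:35262730-35267499. B2m lies at chr2:122147686-122153083, Nlrc5 at chr8:94434356-94527272 and Ciita at chr16:10480059-10528418. Exons of Psmb9 overlap those of Tap1, and exons of Dexi those of Ciita, in both cases on the other strand, and since reads were counted without regard to strand the pairs cannot be told apart where they overlap. H2 genes are a family of near copies, so reads they share may have been lost or shifted between them. The 150 bases (B2m, 149) before the RefSeq start of 4 members are shown because the members of each class are known to share promoter boxes, in RefSeq sequence of GRCm38.p6 and 5′ to 3′ along the gene. Capitals mark matches that lie whole in the stretch, on either strand, to an X box (AGNNACNG), a Y box (ATTGG), an interferon response element (GAAANNGAA) or a GAS element (TTCNNNGAA).
H2-Eb1 (chr17:34305717-34305866, plus strand): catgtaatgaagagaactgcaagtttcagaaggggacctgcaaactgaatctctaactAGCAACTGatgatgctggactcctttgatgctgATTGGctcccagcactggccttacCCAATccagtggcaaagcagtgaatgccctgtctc
H2-Aa (chr17:34287824-34287973, minus strand): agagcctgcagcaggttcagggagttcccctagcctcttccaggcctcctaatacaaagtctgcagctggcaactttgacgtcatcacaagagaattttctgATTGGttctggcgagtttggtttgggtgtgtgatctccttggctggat
B2m (chr2:122147537-122147685, plus strand): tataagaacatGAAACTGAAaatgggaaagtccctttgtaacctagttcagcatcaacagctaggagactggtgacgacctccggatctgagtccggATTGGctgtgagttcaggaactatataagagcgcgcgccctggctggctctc
H2-K1 (chr17:34000348-34000497, minus strand): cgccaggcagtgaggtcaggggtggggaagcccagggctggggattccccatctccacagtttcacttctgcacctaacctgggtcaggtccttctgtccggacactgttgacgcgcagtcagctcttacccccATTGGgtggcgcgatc
Each of the 4 stretches held the Y box letters, which 37.4% of all 32851 promoters in the RefSeq table hold from 250 bases before to 50 after the start. H2-D1 and Tap1 had promoter entries too but are not printed. In that longer window H2-D1 held Y boxes at -76 to -72 and -53 to -49. Tap1 held its Y box at -222 to -218, outside the last 150 bases, and an X box at -95 to -88. The X box letters stood in the H2-Eb1 stretch, in the bases numbered -92 to -85 from the start, with Y boxes at -59 to -55 and -35 to -31, and 50.9% of promoters hold them. B2m alone of the 4 had the interferon response letters, at -139 to -131, found in 8.56% of promoters. The GAS letters, in 8.30% of promoters, were in none of the 4. Only these fixed letters were searched, so a stretch without a match may still hold a variant of a box or element.

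Against stem cells, the class II genes Cd74 and H2-Eb1 were lower in the SecPDG, Tuft and Enterocyte libraries, Cd74 also in EEC and H2-Ab1 in Tuft, and Nlrc5 was higher in enterocytes, while H2-K1, H2-D1, B2m and Tap1 were not called in any of the 5 comparisons, although H2-K1, H2-D1 and B2m were under some other settings. All 10 genes passed the filter on low counts, and a gene was called when its edgeR adjusted p was under 0.01 and its normalized counts averaged 50 or more over the 22 libraries. All 10 members reached that mean, as did 13188 of the 22781 genes tested. Shares of all genes are given over all 22781, so they are lower than the shares among genes that could be called. In AbsPro 0 of 10 members were called with edgeR, and 0 with DESeq2, where 0.588% of the 22781 genes tested were, and 2 members had an unadjusted p under 0.05, Cd74 (0.0106) and H2-Eb1 (0.024). SecPDG had 2 members called, both lower, against 4.98% of all genes (1.6% lower). Tuft had 3, all lower, against 12.1% (4.23% lower). In Enterocyte 3 were called, 2 of them lower, against 22.2% of all genes (11.5% lower), so that the members' share there did not stand out. With edgeR on DESeq2's size factors and with DESeq2's Wald test the balance turned, with 4 members called in Enterocyte, H2-K1, B2m and Nlrc5 higher and Cd74 lower, under a scaling that moved the median log2 fold change of all genes from -0.30 to 0.23. EEC had 1, lower, against 19.9% (9.14% lower), a share below that of all genes. The median log2 fold change over the 10 members was 0.12 in AbsPro, -0.45 in SecPDG, -0.47 in Tuft, -0.06 in Enterocyte and -0.89 in EEC, beside medians of 0.04, -0.06, -0.09, -0.30 and -0.30 over the 13188 genes with a mean of at least 50. The comparisons share the 3 Stem libraries, so they are not independent of each other. With edgeR's older quasi-likelihood fit, that version's default, the calls came down to Cd74 in Tuft, Enterocyte and EEC.

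**Figure D1:**
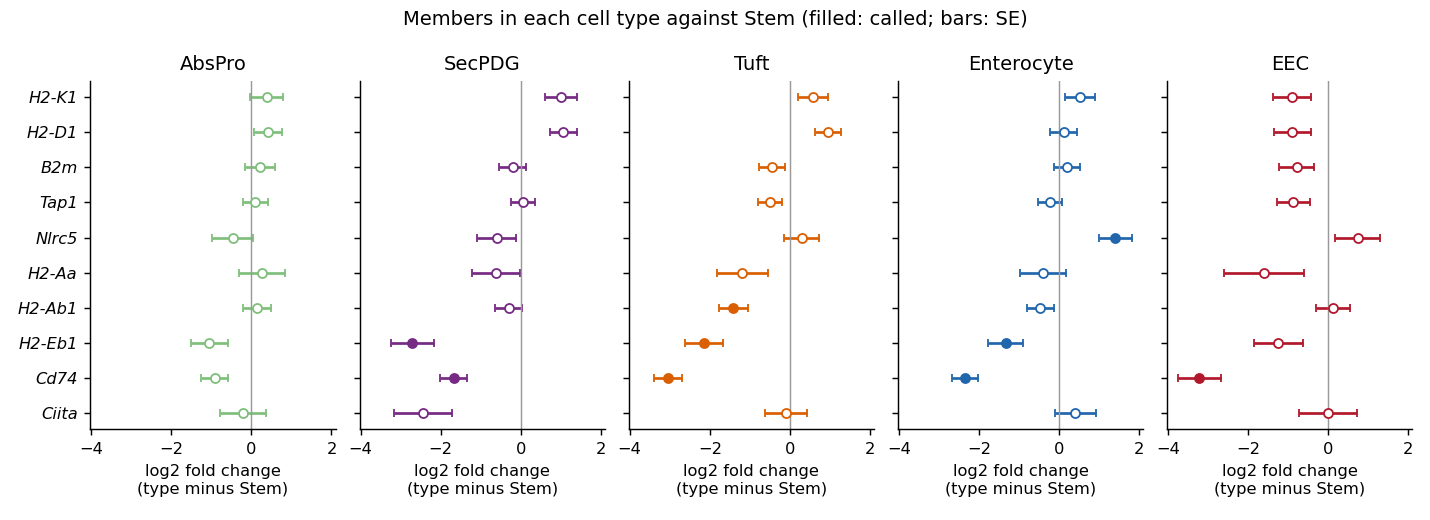
Log2 fold change of each of the 10 members in each cell type against Stem (x axis, cell type minus Stem), with bars for the standard error and filled points for called members. The filled points are Cd74 in 4 cell types, at -1.67 to -3.22, H2-Eb1 in 3, H2-Ab1 in Tuft and, to the right of 0, Nlrc5 in Enterocyte at 1.41.

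Cd74, the invariant chain, encoded at chr18:60803848-60812652 on the plus strand, differed most. Stem libraries held 936, 1639 and 1749 normalized counts, AbsPro libraries 440.1, 846 and 1016, and SecPDG libraries 355, 509.7, 582 and 365. Enterocyte libraries lay at 319, 369, 217, 252 and 260.3, Tuft libraries at 76.9, 280.2, 107, 159 and 238, and EEC libraries at 306 and 41.3. No SecPDG, Tuft, Enterocyte or EEC library reached the lowest Stem library, whereas AbsPro and Stem overlapped. The log2 fold change against Stem was -0.92 ± 0.35 (SE) in AbsPro, which was not called (edgeR adjusted p = 0.266). In SecPDG it was -1.67 ± 0.34 (edgeR adjusted p = 0.000279), a call lost with the older fit (0.0169) and with DESeq2's Wald test (0.0251). In Tuft it was -3.04 ± 0.35 (edgeR adjusted p = 8.78e-10), in Enterocyte -2.35 ± 0.33 (1.98e-07) and in EEC -3.22 ± 0.53 (2.54e-06). Leaving out any library of the comparison ended none of these 4 calls. The EEC value rested on its libraries unequally, being -2.24 without EEC 2 and -5.28 without EEC 1, and in a fit of EEC and Stem alone it was not called (edgeR adjusted p = 0.0166). The share of reads outside genes also differed between these types, and its part in the Cd74 values was not tested. The microRNA gene Mir5107, counted under its own name, overlaps exons of Cd74 on the same strand, so reads there may be missing from the Cd74 counts.

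Cd74 was also lower than in absorptive progenitors in 3 types. The log2 difference from AbsPro was -2.12 ± 0.36 in Tuft (edgeR adjusted p = 1.50e-05), -2.29 ± 0.54 in EEC (0.000619) and -1.43 ± 0.35 in Enterocyte (0.00129). The call in Enterocyte was lost without AbsPro 2 (0.0103) or with the older fit (0.015), and that in EEC without EEC 2 (-1.32, adjusted p = 0.0493), and both were lost with DESeq2's size factors or Wald test and with library totals. The call in Enterocyte was also lost without the 4 libraries with over 80% of their reads outside genes (Enterocyte 1, 2 and 3 and EEC 1), and that in EEC when the 2 types were fitted alone. Members called against AbsPro numbered 2 in Tuft (Cd74 and H2-Ab1) where 8.13% of all genes were, 2 in Enterocyte (Cd74 and Nlrc5) where 16.2% were, and 1 in EEC where 18.3% were.

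H2-Eb1, a class II beta chain, was low in count and also highest in Stem. Stem libraries held 174, 194 and 236 normalized counts, AbsPro libraries 72.8, 136 and 85.3 and SecPDG libraries 20.8, 27.4, 18.5 and 57.8. Tuft libraries lay at 18.3, 51.7, 46.8, 48.3 and 57.7, Enterocyte libraries at 76.0, 94.1, 83.2, 54.7 and 94.2, and EEC libraries at 183 and 14.6. Every AbsPro, SecPDG, Tuft and Enterocyte library lay below every Stem library, and EEC 1 came within the Stem range. The log2 fold change against Stem was -1.05 ± 0.45 in AbsPro (edgeR adjusted p = 0.4), -2.71 ± 0.53 in SecPDG (0.0002), -2.15 ± 0.47 in Tuft (0.000587) and -1.33 ± 0.44 in Enterocyte (0.00842). The calls in SecPDG and Tuft held without any 1 library and were lost with the older fit (0.0438 and 0.0301), 1 of 13 other settings. That in Enterocyte ended without Stem 1, 2 or 3 (0.0114, 0.0113 and 0.0172) or Enterocyte 2, 3, 4 or 5 (0.0141, 0.0168, 0.0199 and 0.0118) and in 7 of 13 other settings. In EEC the fold change was -1.24 ± 0.62 (0.0899), with -0.15 without EEC 2 and -3.94, then called (0.0021), without EEC 1.

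H2-Ab1, the other beta chain, was called lower in tuft cells against Stem. Its Tuft libraries held 161, 237, 40.4, 148 and 211 normalized counts, against 236, 437 and 617 in Stem, 311, 614 and 511 in AbsPro and 441 and 488 in EEC. The highest Tuft library reached the level of the lowest Stem library, and all lay below every AbsPro and EEC library. SecPDG libraries (265, 486, 312 and 360.4) and Enterocyte libraries (349.5, 263, 339, 253 and 369.7) overlapped those of Stem. In Tuft the log2 fold change against Stem was -1.41 ± 0.36 (edgeR adjusted p = 0.0025), which was lost without Stem 3 (0.0338) or Tuft 3 (0.0132), with DESeq2's Wald test (0.0162) or size factors (0.0105), with thinned counts (0.0156) and with the older fit (0.0101). The values in SecPDG (-0.30 ± 0.34) and Enterocyte (-0.47 ± 0.34) were not called, and Tuft was not called against SecPDG (edgeR adjusted p = 0.0315) or Enterocyte (0.0595). Against AbsPro it was -1.55 ± 0.36 (0.00139), lost without AbsPro 2 (0.0275). EEC libraries were above Tuft by 1.52 ± 0.43 on the log2 scale (edgeR adjusted p = 0.00798), a call that ended without Tuft 1, 3 or 4 (0.0119, 0.0247 and 0.0184), EEC 1 (0.0301) or EEC 2 (0.0371) and with the older fit (0.0171), when the 2 types were fitted alone and without the 4 libraries over 80% outside genes.

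H2-Aa, the alpha chain, was not called in any pair of cell types. Stem libraries held 0, 108 and 189 normalized counts, AbsPro libraries 49.5, 231 and 87.2 and SecPDG libraries 66.2, 106, 83.4 and 14.7. Tuft libraries held 35.4, 59.3, 78.4, 31.1 and 26.8, Enterocyte libraries 107, 106, 86.6, 38.8 and 48.5 and EEC libraries 68.7 and 8.49. The Stem libraries alone spanned 0 to 189, and the log2 fold changes against Stem had wide errors, from 0.26 ± 0.57 in AbsPro to -1.61 ± 1.00 in EEC.

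**Figure D2:**
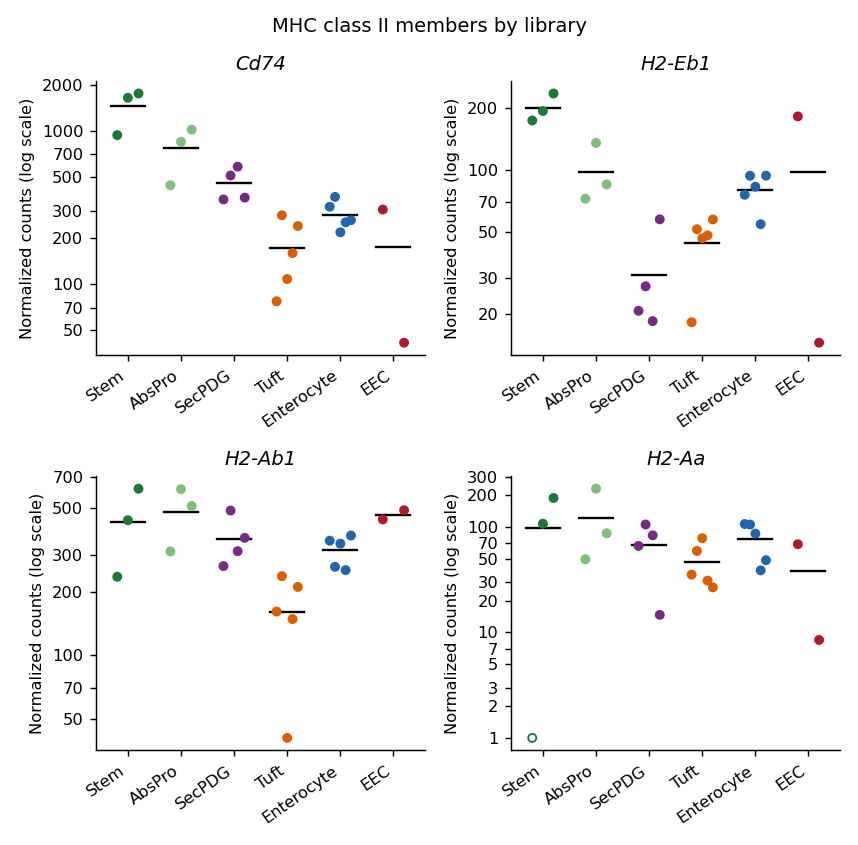
Normalized counts (y axis, log scale) of the class II members Cd74, H2-Eb1, H2-Ab1 and H2-Aa in each library (points) by cell type, with the mean of the type as a line and a count of 0 drawn as an open point at 1. For Cd74 the 3 Stem libraries, from 936 to 1749, lie above all libraries of SecPDG, Tuft, Enterocyte and EEC.

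Of the class I genes, H2-K1 and B2m were abundant in all 6 types. H2-K1, a classical heavy chain, was at 5037, 5672 and 5299 normalized counts in Stem, 6689, 7117 and 7062 in AbsPro and 8817, 9607, 11270.3 and 13138 in SecPDG. It was at 8247, 5987, 7275, 4452 and 13655 in Tuft, 7209.8, 7679.9, 6747, 8578 and 8244 in Enterocyte and 1238 and 4407 in EEC. All AbsPro, SecPDG and Enterocyte libraries lay above the Stem range, and both EEC libraries below it. Yet the log2 fold changes against Stem, of 0.38 ± 0.41 in AbsPro, 1.00 ± 0.39 in SecPDG, 0.57 ± 0.37 in Tuft, 0.53 ± 0.37 in Enterocyte and -0.90 ± 0.48 in EEC, were not called, with edgeR adjusted p of 0.937, 0.118, 0.217, 0.211 and 0.114. Other settings called H2-K1 higher in 3 types. In Enterocyte it was called with edgeR on DESeq2's size factors (1.10, adjusted p = 0.00025), with library totals (1.01, 0.000515) and with DESeq2's Wald test (1.00e-05). In SecPDG it was called with edgeR on the size factors (0.00235), with SecPDG and Stem fitted alone (1.07e-05), without the 4 libraries over 80% outside genes (0.00111) and with the Wald test (0.000353), and in Tuft with the Wald test (0.00501). Without EEC 2 the EEC value was -2.11 and called (edgeR adjusted p = 0.00117).

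H2-D1, the other classical heavy chain, had its highest means in SecPDG and Tuft. Stem libraries held 639, 763 and 593 normalized counts, AbsPro libraries 879, 810.0 and 974 and SecPDG libraries 1217, 2050.1, 1039.5 and 1302. Tuft libraries held 1188, 1210.2, 1114, 1391 and 1560.1, Enterocyte libraries 677, 714, 456, 999 and 756, and EEC libraries 47.0 and 612. SecPDG and Tuft libraries all lay above all Stem and AbsPro libraries. The log2 fold change against Stem was 1.07 ± 0.34 in SecPDG (edgeR adjusted p = 0.0363) and 0.96 ± 0.33 in Tuft (0.0214), both short of the threshold, while fits of each type with Stem alone gave 0.000266 and 0.000796. Both were also called with edgeR on DESeq2's size factors (0.00219 and 0.000455) and without the 4 libraries over 80% outside genes (0.00108 and 0.000488), and that in Tuft with library totals (0.00107) and DESeq2's Wald test (0.00223). In EEC it was -0.90 ± 0.46 (0.102), and without EEC 2, so with EEC 1 at 47.0 normalized counts, -3.82. Per kilobase of exon, EEC 1 held 22.4 normalized counts of H2-D1. The background estimate described below with Nlrc5 reached 22.3 per kilobase in EEC, and its part in this value was not tested.

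Between the types other than Stem, class I calls lay between EEC or Enterocyte on one side and SecPDG or Tuft on the other. Both H2-K1 and H2-D1 were lower in EEC than in SecPDG, by -1.91 ± 0.48 (edgeR adjusted p = 0.00113) and -1.96 ± 0.45 (0.000368) on the log2 scale. They were 2 of 10 members where 21.3% of all genes were called, so that the share did not stand out. Without EEC 1 these values were -1.49 and -1.38, and without EEC 2 -3.11 and -4.89. The -4.89 of H2-D1 rests on EEC 1, which was near the background estimate for this gene. The call of H2-D1 was lost without the 4 libraries over 80% outside genes. Against Tuft, H2-D1 was lower in EEC by -1.86 ± 0.44 (edgeR adjusted p = 0.00144), 1 of 2 members called with H2-Ab1 where 9.29% of all genes were, and this ended without EEC 1 (0.0147) and with the older fit (0.0102), when the 2 types were fitted alone and without the libraries over 80% outside genes. Enterocytes lay below SecPDG in H2-D1 by -0.95 ± 0.30 (0.00638), which was lost without SecPDG 2 (0.0221), SecPDG 4 (0.012), Enterocyte 2 (0.0135) or Enterocyte 3 (0.0248) and with the older fit (0.0332), and held in 6 of 13 other settings.

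B2m, the light chain of class I, and Tap1, a subunit of the peptide transporter, were not called in any of the 15 pairs of types in the fit of all libraries. Under other settings B2m was called higher in Enterocyte, where its log2 fold change against Stem went from 0.19 ± 0.33 to 0.77 with DESeq2's size factors (edgeR adjusted p = 0.00452) and 0.77 with its Wald test (0.0027). Against SecPDG and Tuft it was 0.96 (0.000408) and 1.05 (0.000126) with the size factors, and both were also called with library totals and the Wald test. In EEC, B2m was called lower than in Stem without EEC 2 (-1.62, edgeR adjusted p = 0.00756), and Tap1 lower than in AbsPro without EEC 1 (-1.64, 0.00858) or AbsPro 3 (-1.33, 0.00835). B2m libraries held 2856, 4120.1 and 3918 normalized counts in Stem, 4033, 3557 and 5014 in AbsPro and 2612, 2892, 3125 and 4016 in SecPDG. They held 2445, 2033, 2456, 1653 and 4688 in Tuft, 3100.3, 3988, 3841, 3618 and 6249 in Enterocyte and 1184 and 2975 in EEC. Its ratio to the sum of H2-K1 and H2-D1, all per kilobase of exon, was 1.19 ± 0.171 (SD, n = 3) in Stem, 1.06 ± 0.175 (n = 3) in AbsPro, 0.969 ± 0.250 (n = 5) in Enterocyte and 1.48 ± 0.435 (n = 2) in EEC, but 0.513 ± 0.0231 (n = 4) in SecPDG and 0.567 ± 0.0344 (n = 5) in Tuft. The libraries ran from 0.496 to 0.546 in SecPDG and 0.512 to 0.606 in Tuft, below the 0.743 to 1.36 of Enterocyte, 0.883 to 1.23 of AbsPro and 0.992 to 1.31 of Stem, a split seen in the values and not tested. Tap1 libraries ran from 613 to 753 normalized counts in Stem, 551 to 934 for AbsPro, 525 to 840.3 for SecPDG, 313 to 780.4 for Tuft, 471 to 676 in Enterocyte and 274 to 503 in EEC. Its log2 fold change in Enterocyte, -0.23 ± 0.30, changed sign with DESeq2's size factors (0.33).

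**Figure D3:**
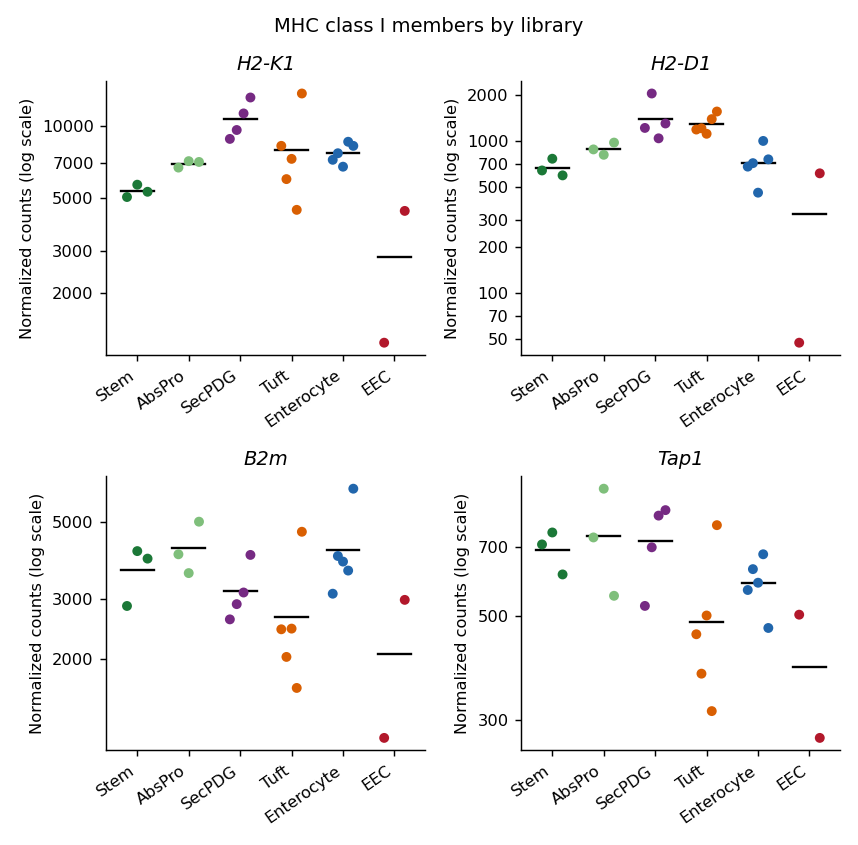
Normalized counts (y axis, log scale) of the class I members H2-K1, H2-D1, B2m and Tap1 in each library (points) by cell type, with the mean of the type as a line. SecPDG holds the highest mean of H2-K1, 10708, and of H2-D1, 1402, and the EEC libraries differ from each other, with 47.0 and 612 normalized counts of H2-D1.

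Nlrc5, the class I transactivator, was higher in enterocytes. Enterocyte libraries held 632, 603, 620.4, 373 and 363 normalized counts, all above the 240.2, 80.7 and 270.2 of Stem. AbsPro libraries (120.1, 35.8 and 280.4), SecPDG libraries (200.4, 137, 66.5 and 119) and Tuft libraries (275, 249.9, 303, 219.7 and 169.8) lay below every Enterocyte library, while EEC libraries stood at 642 and 69.2. The log2 fold change in Enterocyte was 1.41 ± 0.42 against Stem (edgeR adjusted p = 0.00398), 1.88 ± 0.45 against AbsPro (0.00105) and 2.00 ± 0.42 against SecPDG (0.000152). Nlrc5, Ciita and H2-D1 were the 3 members called between Enterocyte and SecPDG, where 23.4% of all genes were. The call against Stem ended without Stem 2 (0.90, adjusted p = 0.0952), Stem 3 (0.0141), Enterocyte 1 (0.0232) or Enterocyte 3 (0.0111) and with the older fit (0.0383). Against AbsPro it ended without AbsPro 1 (0.0205) or AbsPro 2 (0.0206) and with the older fit (0.019), whereas against SecPDG it held with the older fit (0.00441) and was lost without the 4 libraries over 80% outside genes, as were the calls against Stem and AbsPro.

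Reads outside annotated genes moved with these Nlrc5 values. Enterocyte 1, 2 and 3, with 83.3, 81.3 and 82.3% of reads outside genes, held the 3 highest Nlrc5 levels of the type, and Enterocyte 4 and 5, with 67.2 and 69.2%, the 2 lowest. Without the former and without EEC 1, the fold change against Stem was 1.02 and not called (edgeR adjusted p = 0.0893). A background estimate was taken from 1494 genes of the olfactory receptor, vomeronasal receptor and keratin-associated protein families, as counts per kilobase of exon times the exon length of the gene. Over the 6945 exon bases of Nlrc5 it came to 73.2 normalized counts in Enterocyte, 14.1% of the mean, and to 25.9% in EEC, 15.3% in Tuft, 3.58% in SecPDG, 2.55% in AbsPro and 1.58% in Stem. The part of such reads in the difference was not tested, and nothing was subtracted.

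Ciita, the class II transactivator, was not called against Stem in any type. Its libraries held 57.4, 174 and 176 normalized counts in Stem, 23.3, 237 and 106 in AbsPro and 0, 58.4, 11.8 and 40.2 in SecPDG. They held 70.8, 175, 297, 102 and 36.8 in Tuft, 168, 196, 298, 116 and 130.2 in Enterocyte and 273 and 35.2 in EEC. SecPDG was the lowest type, at -2.44 ± 0.73 on the log2 scale against Stem, which missed the threshold (edgeR adjusted p = 0.0242). Enterocytes lay above SecPDG by 2.85 ± 0.69 (edgeR adjusted p = 0.000676), with all 5 Enterocyte libraries above all 4 of SecPDG, a call lost with the older fit (0.0144) and without the libraries over 80% outside genes. Over the 6687 exon bases of Ciita the background estimate reached 38.8% of the mean in Enterocyte, 57.4% in EEC and 26.2% in Tuft, against 2.21% in Stem. For Cd74 it was at most 10.8% of the mean, in EEC, and for H2-Eb1 20.1% in Tuft, 21.9% in Enterocyte and 22.4% in EEC.

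**Figure D4:**
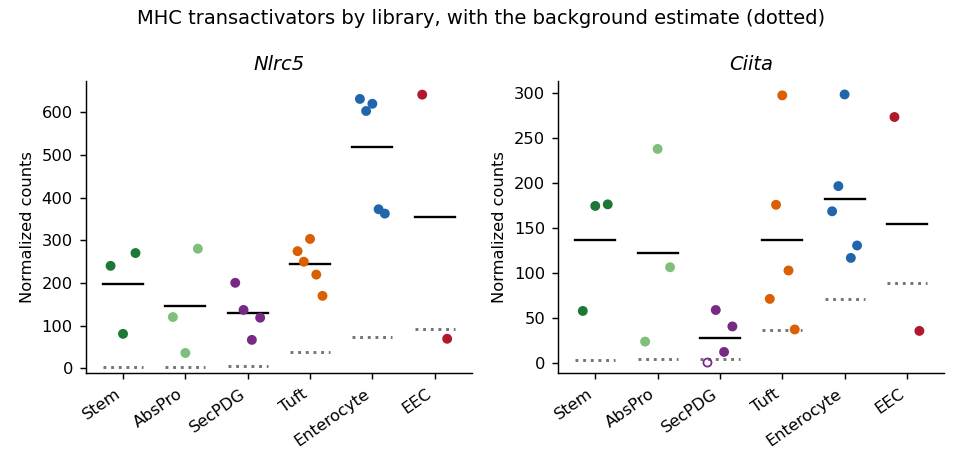
Normalized counts (y axis, linear scale) of the transactivators Nlrc5 and Ciita in each library (points) by cell type, with the mean of the type as a solid line, the background estimate from receptor and keratin-associated gene families as a dotted line and a count of 0 as an open point. The 5 Enterocyte points of Nlrc5 lie above all Stem points, and the dotted line for Ciita in EEC stands at 57.4% of the mean.

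Put in order, the levels fell into steps whose library ranges overlapped in all but 4 of 50 cases. Per kilobase of exon, B2m and H2-K1 were the highest in every type, with 4223 ± 789 (SD, n = 3) and 3224 ± 193 normalized counts per kilobase in Stem, followed there by Cd74 at 1018 ± 312, H2-Ab1 at 355 ± 158, H2-D1 at 316 ± 41.9 and Tap1 at 234 ± 24.3. The lowest in Stem were H2-Eb1 at 121 ± 18.8, H2-Aa at 87.5 ± 83.9, Nlrc5 at 28.4 ± 14.7 and Ciita at 20.3 ± 10.2 per kilobase. In Tuft, Cd74 was at 122 ± 60.6 (n = 5) and H2-D1 at 615 ± 86.1 per kilobase, the reverse of their order in Stem. By mean level across types, Cd74 ran from Stem through AbsPro, SecPDG, Enterocyte and EEC to Tuft, H2-Eb1 from Stem through EEC, AbsPro, Enterocyte and Tuft to SecPDG, and H2-K1 from SecPDG through Tuft, Enterocyte, AbsPro and Stem to EEC. The fitted difference had the other sign than the means in 3 of the 50 steps between neighbours, EEC and Tuft for Cd74, EEC and AbsPro for H2-Eb1 and Tuft and Stem for Ciita, none of them called. Of the 50 steps between neighbours in the 10 orders, 0 were called with edgeR, and 3 with DESeq2's Wald test. Neighbours are the types nearest in mean, so small differences are built in. The 4 steps without overlap were AbsPro over Stem and Stem over EEC for H2-K1, Tuft over AbsPro for H2-D1 and Enterocyte over Tuft for H2-Ab1. How often such steps occur over all genes was not computed. Of all 150 pairs of types 21 were called, 7 of them for Cd74. Over all genes and the same pairs 11.8% were called, with genes too low to be called included in that share. The highest and lowest type differed 8.36-fold in mean level for Cd74 (Stem over Tuft), 6.59-fold for Ciita (Enterocyte over SecPDG), 6.47-fold for H2-Eb1 (Stem over SecPDG), 4.26-fold for H2-D1 and 3.79-fold for H2-K1 (both SecPDG over EEC), 3.97-fold for Nlrc5 (Enterocyte over SecPDG) and 3.00-fold for H2-Ab1 (AbsPro over Tuft), with all 7 called. For B2m, Tap1 and H2-Aa, each highest in AbsPro and lowest in EEC, the ends differed 2.02-, 1.91- and 3.18-fold and were not called. The ends of each order were picked from these same means, which favours a call. The share of all genes called between their own ends was not computed.

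Over the 22 libraries, log2 levels of H2-K1 and H2-D1 had a Pearson r of 0.84, H2-K1 and B2m of 0.64, H2-Eb1 and Cd74 of 0.66, and Cd74 and Ciita of 0.05. These are descriptions, as the points share cell type, depth and background. Among the 13188 genes with a mean of at least 50, those most like Cd74 were Cd320 (0.89), Ripk3 (0.88) and Top1mt (0.85), and those most like H2-Eb1 Dnase1 (0.87), Afm (0.83) and U2af1 (0.83). For H2-K1 they were S100a16 (0.91), Tspan1 (0.91) and Tspan3 (0.90), for H2-D1 Uprt (0.96), Cadps2 (0.95) and Ralb (0.95), and for B2m Eif2s2 (0.91), Serpinb6a (0.90) and Ifi27l2b (0.90). Nlrc5 was most like Slc4a9 (0.93), Palm2 (0.90) and Dsg4 (0.89), and Ciita most like Adam8 (0.87), Gm10069 (0.87) and Rilpl1 (0.86). For Tap1 they were Creg1 (0.75), Rps4l (0.75) and Sept9 (0.75), for H2-Aa Tm4sf5 (0.72), Dusp19 (0.72) and Cap2 (0.70) and for H2-Ab1 Alkbh2 (0.73), Elmod3 (0.73) and Setd6 (0.72), the 3 members with no gene above 0.76 in this measure.

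Other genes of the class I route did not move together. Over all genes tested, 3.38% were called higher than in Stem in SecPDG, 7.83% in Tuft, 10.7% in Enterocyte and 10.8% in EEC. Those called lower made up 1.6, 4.23, 11.5 and 9.14% in the same order. Counts on this list and on those below stand beside these shares. Among 11 genes of heavy chains and peptide loading, SecPDG had 2 called higher, the transporter subunit Tap2 (1.43 ± 0.37, edgeR adjusted p = 0.00691) and Pdia3, a disulfide isomerase of the loading complex that also folds other proteins (2.01 ± 0.47, 0.00204). Tap2 was also higher in Tuft (1.25 ± 0.36, 0.00808) and Enterocyte (1.20 ± 0.37, 0.00507). Erap1, which trims peptides in the endoplasmic reticulum, was lower in Enterocyte (-1.17 ± 0.29, 0.000898) and EEC (-1.75 ± 0.41, 0.000483), and Tapbpl, a tapasin relative, in EEC (-1.88 ± 0.52, 0.00253). The median log2 fold change of the 11 was 0.38, 0.88, 0.36, -0.20 and -0.90 in AbsPro, SecPDG, Tuft, Enterocyte and EEC. Of 5 immunoproteasome genes, subunits and activators that interferon induces, 0 were called higher in any type. Psmb10 was lower in Tuft (-1.02 ± 0.28, 0.00548), Enterocyte (-0.92 ± 0.28, 0.00528) and EEC (-1.32 ± 0.39, 0.00511), the activator Psme1 in Tuft (-1.31 ± 0.34, 0.00302) and EEC (-1.96 ± 0.48, 0.000773), and Psmb8 in EEC (-2.03 ± 0.52, 0.00122). Of their 3 standard counterparts, 2 were lower in Enterocyte, Psmb6 (-1.14 ± 0.32) and Psmb7 (-0.96 ± 0.31), and 3 in EEC, Psmb5 (-2.50 ± 0.74), Psmb6 (-1.32 ± 0.43) and Psmb7 (-1.69 ± 0.45).

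Nonclassical class I genes, 16 of 19 tested, split by gene. H2-T3, which encodes the thymus leukemia antigen, averaged 850.2 ± 298 normalized counts (SD, n = 3) in Stem and 1059 ± 106 (n = 3) in AbsPro but 118 ± 101 (n = 4) in SecPDG and 121 ± 39.7 (n = 5) in Tuft, with log2 fold changes against Stem of -2.85 ± 0.41 (edgeR adjusted p = 5.24e-07) and -2.78 ± 0.39 (1.29e-07). Fcgrt, the neonatal Fc receptor, was lower in SecPDG (-1.33 ± 0.32, 0.00356), Tuft (-1.76 ± 0.32, 3.30e-05) and EEC (-1.43 ± 0.43, 0.00589). H2-T23, the Qa-1 heavy chain, was higher in SecPDG (1.45 ± 0.38, 0.00761). H2-Q10 was higher in Tuft (1.84 ± 0.52, 0.00617) and EEC (2.90 ± 0.58, 5.89e-05), H2-Q1 in Enterocyte (3.72 ± 0.64, 5.26e-06) and EEC (2.99 ± 0.85, 0.00301), and H2-T10 in Enterocyte (3.35 ± 0.92, 0.00199), where 40.0% of its mean was background by the estimate. H2-Q4 was lower in EEC (-1.94 ± 0.45, 0.000456). H2-Q6 and H2-T22 were listed at 0 in all 22 libraries, and single genes of the H2-Q and H2-T series are uncertain for the reason given above for near copies.

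Of 10 class II chains and chaperones, 6 reached a mean of 50, and every gene of the list that was called was a member. The median log2 fold change of the 10 was 0.17, -0.29, 0.17, 0.37 and 0.60 in AbsPro, SecPDG, Tuft, Enterocyte and EEC. The median thus lay above 0 in Tuft and Enterocyte, unlike the values of Cd74 and H2-Eb1, but it weighs genes under a mean of 50 like the others. H2-Eb2 and H2-Oa were at 0 in all Stem libraries, and 0 genes of the list were called higher in any type. H2-DMa, of the peptide editor of class II, averaged 98.4 ± 2.35 normalized counts (SD, n = 3) in Stem, 43.3 ± 11.8 in AbsPro, 30.8 ± 17.6 in SecPDG, 24.7 ± 19.5 in Tuft, 59.6 ± 17.7 in Enterocyte and 144 ± 182 in EEC. The sum of the list lay at 1473 to 2945 normalized counts per library in Stem, 935 to 1927 for AbsPro, 771 to 1294 for SecPDG, 503 to 950.2 for Tuft, 776 to 1250.4 in Enterocyte and 643 to 2005 in EEC. Every SecPDG, Tuft and Enterocyte sum lay below every Stem sum, and Cd74 alone averaged 1441 of the mean sum of 2309 in Stem. The background estimate came to 14.1% of this sum in Tuft, 16.6% in Enterocyte and 17.05% in EEC. Of 6 endosomal processing genes, cathepsin S (Ctss), which cuts the invariant chain, was lower in Tuft (-2.17 ± 0.40, edgeR adjusted p = 3.66e-05) and higher in Enterocyte (1.26 ± 0.38, 0.00423), and cathepsin L (Ctsl) was higher in Enterocyte (1.52 ± 0.37, 0.000789) and EEC (2.45 ± 0.43, 9.10e-06). Of 9 MHC transcription regulators, Nlrc5 and Ciita included, Rfxap (-1.05 ± 0.34, 0.00672) and Nfya (-1.22 ± 0.30, 0.000781), subunits of the complexes that bind the X and Y boxes, were lower in Enterocyte, and no regulator was called in AbsPro, SecPDG, Tuft or EEC.

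Genes of interferon gamma were described on 2 lists. Of 9 signalling genes, Irf8, an interferon regulatory factor, was lower in Tuft (-1.63 ± 0.30, edgeR adjusted p = 3.57e-05), Enterocyte (-1.66 ± 0.30, 1.55e-05) and EEC (-3.03 ± 0.47, 7.02e-07). The receptor chain Ifngr1 was lower in Tuft (-1.26 ± 0.33, 0.00301), while Socs1, a feedback inhibitor, was higher in EEC (2.97 ± 0.82, 0.00244). Of 12 response genes, 6 were higher and 1 lower in Enterocyte, where 10.7% of all genes were called higher and 11.5% lower. Ido1, a tryptophan-degrading enzyme, averaged 594 ± 123 normalized counts (SD, n = 5) there against 17.6 ± 25.4 (n = 3) in Stem (5.18 ± 0.56, 1.71e-10). Gbp2, a guanylate-binding protein, averaged 297 ± 76.1 against 22.97 ± 11.7 (3.65 ± 0.59, 2.23e-06), and its relative Gbp4 133 ± 49.0 against 4.94 ± 8.56 (4.67 ± 0.84, 1.11e-05). The chemokine Cxcl9 was at 3.08 ± 0.87 (0.00266). Background by the estimate was 3.24% of the Enterocyte mean for Ido1, 8.92% for Gbp2, 35.9% for Gbp4 and 44.6% for Cxcl9. The GTPase gene Irgm1 was the lower one, which fell by 1.00 ± 0.31 on the log2 scale (0.00489) in Enterocyte and stood at -3.05 ± 0.51 (3.93e-06) in EEC, where Cxcl9 (3.91 ± 0.96) and Ido1 (2.77 ± 0.88) were higher. Background came to 29.7% of the list's sum in EEC, against 10.6% in Enterocyte, and its part in the EEC values was not tested. Gbp3 was the 1 gene of the list called in Tuft (1.68 ± 0.42, 0.0021). The median of the list was 0.47, 0.68, 1.38, 1.55 and 0.16 in AbsPro, SecPDG, Tuft, Enterocyte and EEC.

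Among 8 costimulation and checkpoint ligands, Cd274 (PD-L1) averaged 240.5 ± 85.2 normalized counts in Enterocyte (SD, n = 5) and 73.8 ± 59.4 in Tuft (n = 5) against 4.72 ± 8.17 in Stem (n = 3). Its log2 fold changes were 5.61 ± 0.86 (edgeR adjusted p = 5.99e-07) and 3.86 ± 1.08 (0.00541), with background at 15.9 and 26.3% of the means. Icosl was higher in Enterocyte (1.72 ± 0.50, 0.00361) and EEC (2.63 ± 0.57, 0.000206) and Vtcn1 in Enterocyte (2.497 ± 0.603, 0.000589), whereas Cd276 was lower in Enterocyte (-1.30 ± 0.35, 0.00168) and EEC (-1.94 ± 0.54, 0.00264). No gene of the list was called in AbsPro or SecPDG.

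Some leukocytes carry class II, so leukocyte markers were read beside it. The sum of 7 B cell markers per library was 0 to 30.1 normalized counts for Stem, 14.8 to 34.7 for AbsPro, 2.53 to 69.6 for SecPDG, 42.7 to 529.6 for Tuft, 243 to 619 in Enterocyte and 89.8 to 1074 in EEC. That of 8 dendritic cell markers was 28.2 to 30.3 in Stem, 0 to 89.1 for AbsPro, 10.4 to 41.0 for SecPDG, 102 to 384 for Tuft, 253 to 942 in Enterocyte and 68.0 to 1614 in EEC. Of these markers, 1 on each list was at 0 in all Stem libraries, Pax5 and Batf3. The 8 pan-leukocyte markers, of which Cd53 and Lcp2 were at 0 in Stem, summed to 7.65 to 61.3 there, 116 to 155 for AbsPro, 5.05 to 117 for SecPDG, 1213 to 3233 for Tuft, 279 to 632 in Enterocyte and 346 to 1273 in EEC. Most of the Tuft sum was Ptprc, which encodes Cd45, with 1671 ± 781 (SD, n = 5) against 18.0 ± 16.5 (n = 3) in Stem (6.47 ± 0.51, edgeR adjusted p = 5.09e-16), in cells gated as Cd45-. Whether this RNA came from tuft cells themselves or from leukocytes was not tested. In Enterocyte the background estimate came to 37.4% of the pan-leukocyte sum, 53.3% of the B cell sum and 40.3% of the dendritic cell sum. In Stem, Tuft and EEC it was 18.0, 4.88 and 27.4% of the pan-leukocyte sum. For the B cell sum it was 61.1, 50.4 and 51.9% in these types, and for the dendritic cell sum 35.8, 39.4 and 36.3%.

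Macrophage and monocyte markers (8 genes) summed to 119 to 187 normalized counts in Stem, 144 to 343 for AbsPro, 1231 to 2230.4 for SecPDG, 358 to 1813 for Tuft, 379.8 to 905 in Enterocyte and 273 to 1703 in EEC. C1qb was the 1 marker of this list at 0 in all Stem libraries. Most of the SecPDG sum was C1qa, at 1596 against 60.9 in Stem (4.70 ± 0.51, edgeR adjusted p = 2.61e-10), while C1qc was at 0 there. T cell and intraepithelial lymphocyte markers (8) summed to 9.43 to 43.6 in Stem, 15.5 to 61.0 for AbsPro, 0 to 68.4 for SecPDG, 0 to 532 for Tuft, 235 to 645 in Enterocyte and 342 to 1853 in EEC. Of these 8, 0 reached a mean of 50, so none could be called whatever its change. Their median log2 fold change against Stem was 3.38 in Tuft, 4.34 in Enterocyte and 5.69 in EEC. Endothelial markers (4) summed to 9.60 to 18.9 in Stem, 0 to 86.3 for AbsPro, 24.5 to 74.6 for SecPDG, 169.8 to 586 for Tuft, 334 to 783 in Enterocyte and 826 to 1339.6 in EEC, and stromal markers (6) to 61.3 to 201, 34.2 to 1239.8, 8.51 to 114, 119 to 616, 446 to 1279 and 303 to 2283 in the same order. In Stem, Tuft, Enterocyte and EEC the background estimate came to 5.16, 9.24, 28.2 and 24.6% of the macrophage sum. In the same order it was 26.7, 38.8, 38.6 and 20.8% of the T cell sum. It was 54.6, 23.3, 31.7 and 22.1% of the endothelial sum and 8.16, 38.5, 33.5 and 28.5% of the stromal sum. The markers called against Stem on these 7 lists were all higher. The part of background reads in these sums, and of such cells in the members' values, was not tested.

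**Figure D5:**
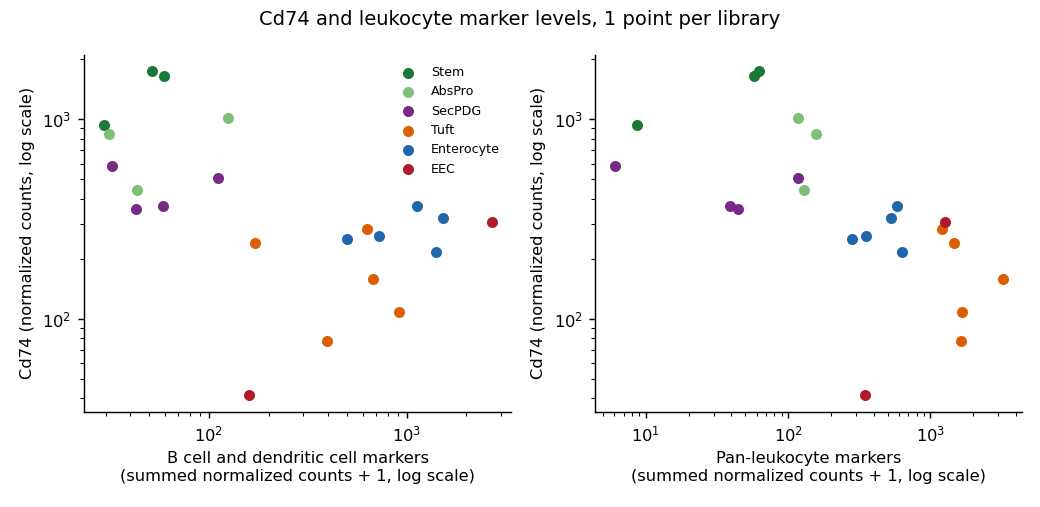
Cd74 (y axis, normalized counts, log scale) against the summed markers of B cells and dendritic cells (left) and the pan-leukocyte markers (right, both x axes in normalized counts plus 1, log scale), with 1 point per library coloured by cell type. The Stem points, at 936 to 1749 normalized counts of Cd74, lie at the low end of the B cell and dendritic cell sum, and the Enterocyte points, at 217 to 369, toward its high end.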

How the data were processed

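RNA-seq libraries were made from sorted cells with a low-input kit. The authors trimmed the paired reads, aligned them with STAR 2.5.2a to mm10 and counted them with HTSeq 0.6.1p1 without strand, and the deposited values are raw counts per gene symbol. The libraries came from independent mice or sets of pooled mice per the study's methods. Lines of the files without a gene name were left out of all totals and fits, and among them reads outside genes made up 41.3 to 89.9% of the reads on genes and outside them. The share of reads outside genes and the normalized values carry counting error that falls with depth.

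The fit used edgeR 4.0.16 (R 4.3.3) on the counts of all 22 libraries at once, cell type being its 1 term, following filterByExpr (22781 of 24421 genes) and TMM, by the quasi-likelihood F test with Benjamini-Hochberg adjustment over all genes, and the SE is the log2 fold change over the root of F. The newer form of the fit was taken because it matched an earlier processing of these data. A first run with the older form, that version's default, had been seen by then and made fewer calls, so this choice was not blind to the outcome. The fit was tested on simulated counts with known changes in Tuft only, a single dispersion for all genes and no background that differed by type. Such counts do not resemble the Enterocyte and EEC libraries, so that test says nothing on calls there or on the form of the fit.

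The members and lists were chosen with earlier results of these data known. Named in the text are all 10 members, up to 4 called genes with the largest change per list and comparison, any gene that a count of 5 or fewer refers to, and the 3 genes most correlated with each member in log2 CPM (prior count 2). H2-DMa, the marker genes given by level and the second value of a gene named for another type were added after their values were seen. Exon lengths and coordinates come from GENCODE M21 and promoters from RefSeq, where 6 of 10 members had an entry. Tables of splicing and polyadenylation were not used here.

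Alternatives were DESeq2 1.42.0 (Wald test, size factors), library totals, an adjusted p under 0.05, a 2-fold minimum, other minimum means, no filter, counts thinned to 4122122 per library, a replicate block, 2 cell types alone and each library left out. The older fit and a fit without the 4 libraries over 80% outside genes were chosen after seeing the data. Figures were drawn with Python 3.11.15 and matplotlib 3.10.9. Values of a gene on the interferon gamma signalling list are not reported here.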

Additional observations from a re-analysis of the deposited data

Results flagged for a closer look

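Of 30 sets of libraries (10 genes in the 3 types with 4 or 5 libraries), 3 held a library far from the rest, and chance alone flags about 1 in 20 such sets. B2m in Tuft 5 stood at 4687.7 normalized counts, against 2455.8 in the next highest Tuft library, a gap of 0.735 of the whole range. B2m in Enterocyte 5 stood at 6248.8, against 3988 in the next, a gap of 0.718. H2-Eb1 in Tuft 1 stood at 18.3, against 46.8 in the next lowest Tuft library, a gap of 0.722. Tuft 5 had 43.9% of its reads outside genes, the lowest share of its type, against 59.9 to 68.4% in the others, and the part of this in its B2m value was not tested.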

How the results depend on the processing

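The counts of members called against Stem, 0, 2, 3, 3 and 1 in AbsPro, SecPDG, Tuft, Enterocyte and EEC, depended most on the form of the quasi-likelihood fit, which gave 0, 0, 1, 1 and 1 in its older form, and that form also called 3082 genes of all in Enterocyte against 5060. SecPDG had 4 members called at an adjusted p under 0.05, with DESeq2's size factors, with 2 cell types alone, and without the 4 libraries over 80% outside genes, where all genes called rose from 1134 to 1712, 1649, 2191 and 1891. The added members were H2-D1, higher, and Ciita, lower, at the looser threshold, and H2-K1 and H2-D1, both higher, in the other 3 settings. Leaving those 4 libraries out gave 1 in Enterocyte and 2 in EEC, and 2 cell types alone gave 0 in EEC. Leaving out 1 library gave 2 to 3 in Tuft, 1 to 2 in Enterocyte (1 without Stem 2, Stem 3 or Enterocyte 3) and 1 to 5 in EEC (2 without EEC 1, 5 without EEC 2). Neighbours in the order of levels, 0 called, became 3 with DESeq2's size factors and with its Wald test, 1 with library totals and 1 without the 4 libraries, and 0 to 3 with 1 library left out (3 without EEC 1, 2 without EEC 2). The replicate block changed no count of members called (0, 2, 3, 3 and 1). Same-numbered libraries of different types had deviations correlated from -0.391 to 0.501 (44 pairs, median 0.002), so the numbers were not taken to pair the samples. DESeq2's size factors moved the median log2 fold change of all genes from -0.30 to 0.23 in Enterocyte and from -0.30 to 0.31 in EEC, and the share of calls that were higher from 48.3 to 75.6% and from 54.2 to 77.3%. Library totals moved that share to 70.9% in Enterocyte and, in SecPDG, from 67.9 to 44.1%. The log2 fold changes against Stem that changed sign had not been called. With the replicate block the values were, for H2-D1 in Enterocyte -0.019, B2m in Enterocyte -0.031, H2-Aa in Enterocyte 0.081, Ciita in Tuft 0.26 and Ciita in EEC 0.32. With library totals the values were, for Tap1 in SecPDG -0.16, Tap1 in Enterocyte 0.25, H2-Aa in Enterocyte 0.057, H2-Ab1 in Enterocyte 0.0006 and Ciita in EEC 0.37. With thinned counts the values were, for Tap1 in SecPDG -0.00048, H2-Aa in Enterocyte 0.13, Ciita in AbsPro 0.092, Ciita in Tuft 0.18 and Ciita in EEC 0.57. With DESeq2's size factors the values were, for Tap1 in Enterocyte 0.33, H2-Aa in Enterocyte 0.18, H2-Ab1 in Enterocyte 0.12, Ciita in Tuft 0.13 and Ciita in EEC 0.71. With 2 cell types alone the values were, for Tap1 in Enterocyte 0.078 and Ciita in EEC 0.29. With DESeq2's Wald test the values were, for Tap1 in Enterocyte 0.35, Tap1 in EEC 0.073, H2-Aa in Enterocyte 0.41, H2-Ab1 in Enterocyte 0.20, H2-Eb1 in EEC 0.093, Ciita in Tuft 0.31 and Ciita in EEC 1.31. Without the 4 libraries over 80% outside genes the values were, for Nlrc5 in EEC -1.44 and Ciita in Enterocyte -0.064. With the older fit the values were, for Ciita in Tuft 0.0051 and Ciita in EEC 0.18. With 1 library left out, the sign changed within the range for H2-D1 in Enterocyte (-0.17 to 0.25), Tap1 in AbsPro (-0.10 to 0.34), Tap1 in SecPDG (-0.021 to 0.19), Nlrc5 in Tuft (-0.087 to 0.57), Nlrc5 in EEC (-1.65 to 1.71), H2-Aa in AbsPro (-0.61 to 1.09), H2-Aa in SecPDG (-1.15 to 0.23), H2-Aa in Enterocyte (-0.94 to 0.23), H2-Ab1 in AbsPro (-0.15 to 0.49), H2-Ab1 in SecPDG (-0.58 to 0.052), H2-Ab1 in EEC (-0.17 to 0.31), Ciita in AbsPro (-1.20 to 0.40), Ciita in Tuft (-0.59 to 0.21), Ciita in EEC (-2.13 to 0.98). Where not stated, the cause of a change was not tested. Depth limits the low genes most, as EEC 1 had 4122122 counts on genes, and counting error does not cover the spread of pooled mice.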
